A study of Mus musculus with 12 samples.

Results

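The chromosome 6 intervals without a repeat are 1094 stretches of the mouse genome in which RNA held at chromatin carried signal after immunoprecipitation for N6-methyladenosine (m6A). They are the intervals of the deposited table on chromosome 6 in which no repeat family covered 50% or more of the length and whose mean deposited signal over 6 libraries was at least 1. Of 74299 intervals, 4082 lay on chromosome 6, 1189 of those had no such repeat, and 1094 of those reached the minimum. The members were thus selected on their mean signal over all libraries and on no contrast between genotypes, but chromosome 6 was picked with its shift between genotypes known. The shift is therefore given as a description, with no test.

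The cells were E14TG2a mouse embryonic stem cells of 3 genotypes with 2 libraries each. Alkbh5 KO cells lack Alkbh5. Alkbh5 del-cIDR cells, written ΔcIDR here, carry a deletion in Alkbh5 that the series title ties to an intrinsically disordered region, and WT cells carry neither change. All shared 1 medium with serum, LIF and the kinase inhibitors PD0325901 and CHIR99021. The KO columns are named KO6, a number the labels do not explain, and those of ΔcIDR were assigned by elimination from the name KI. The columns were read as immunoprecipitated RNA because the submitters call the table an m6A matrix. No input column was used here, so m6A, the amount of RNA and the number of gene copies cannot be told apart in any value. The labels do not say whether replicates came from separate cultures, so p-values measure only the spread between these libraries. Pluripotency markers and Alkbh5 itself were not checked, since the table names no gene and no GRCm39 annotation was used here.

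ALKBH5 is a nuclear enzyme that removes m6A, the most common internal mark of messenger RNA, which is also found on nascent and noncoding RNA at chromatin. In mouse embryonic stem cells m6A on chromatin-associated RNA, much of it from retrotransposons, is known to affect chromatin state. As further background, cultured mouse embryonic stem cells are known to gain or lose whole chromosomes, and RNA from a chromosome then tends to follow its copy number. Copy number was not measured here.

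Lengths ran from 200 to 2397 bp with a median of 377 bp, beside 376 bp for the 20634 intervals without a repeat on the other autosomes. They lay between positions 3520441 and 149488044 on GRCm39 and together covered 498.3 kb. Of the 1094, 738 held no base of any annotated repeat. Their median level was 161 reads per library, from 7.50 to 8417, and 127 had fewer than 20 reads. Reads in all intervals came to 14657271 and 13611019 in the KO libraries, 14491339 and 15145206 in the ΔcIDR libraries and 13234793 and 13386543 in the WT libraries. The interval with the most reads held 1.48% of the reads in the set and the top 10 held 11.6%.

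Relative to the other autosomes, signal on chromosome 6 stood higher in KO and lower in ΔcIDR than in WT. Each library was centred on its median over intervals without a repeat on the other autosomes, in log2 of signal plus 0.5, and each interval is given relative to its WT mean. The chromosome 6 medians were 0.34 and 0.34 in the KO libraries, −0.16 and −0.13 in the ΔcIDR libraries and 0.0083 and −0.0083 in the WT libraries. No library of a genotype overlapped those of another. The WT values mirror each other because they are taken around their own mean.

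KO stood 0.34 ± 0.0083 above WT on the log2 scale (SE, n = 2 each), a 1.26-fold level. ΔcIDR stood at −0.14 ± 0.016 from WT, a 0.906-fold level, and at −0.48 ± 0.014 from KO, a 0.717-fold level (SE, n = 2 each). With 2 libraries against 2 an exact permutation test cannot go below 0.33. Summed reads weight each read and not each interval, and gave 0.34 ± 0.021 for KO over WT and −0.11 ± 0.019 for ΔcIDR over WT (SE, n = 2 each).

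As a share of the reads in autosomal intervals without a repeat, the set held 5.53% and 5.42% in KO, 4.04% and 4.11% in ΔcIDR and 4.42% and 4.35% in WT. The 95% Wilson intervals were 5.52% to 5.54% and 5.41% to 5.43% in KO, 4.03% to 4.05% and 4.10% to 4.12% in ΔcIDR, and 4.41% to 4.44% and 4.33% to 4.36% in WT. They cover counting error only. Libraries of different genotypes lay farther apart than these widths, but so did the 2 libraries of each genotype. The widths therefore cannot tell a genotype difference from the spread between replicates.

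The centring carries the direction of the shift. On the deposited scale, which follows the reads of the added m6A spike-in, chromosome 6 stood at −0.072 ± 0.27 in KO over WT. In ΔcIDR over WT it stood at 0.44 ± 0.052 (SE, n = 2 each). The KO over WT value was smaller than its SE. The other autosomes themselves stood at −0.41 ± 0.27 and 0.58 ± 0.058 on that scale (SE, n = 2 each). The values here describe the position of chromosome 6 relative to them.

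Chromosome 8 was the other autosome that stood apart. Its 1274 intervals without a repeat had medians of 0.28 and 0.27 in KO, −0.19 and −0.18 in ΔcIDR and −0.0023 and 0.0023 in WT. The remaining 17 autosomes lay between −0.067 (chromosome 10) and 0.066 (chromosome 11) in KO over WT, and between −0.043 (chromosome 18) and 0.036 (chromosome 2) in ΔcIDR over WT. Chromosome 6 lay outside both ranges, on opposite sides of WT in the mutants.

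**Figure D1:**
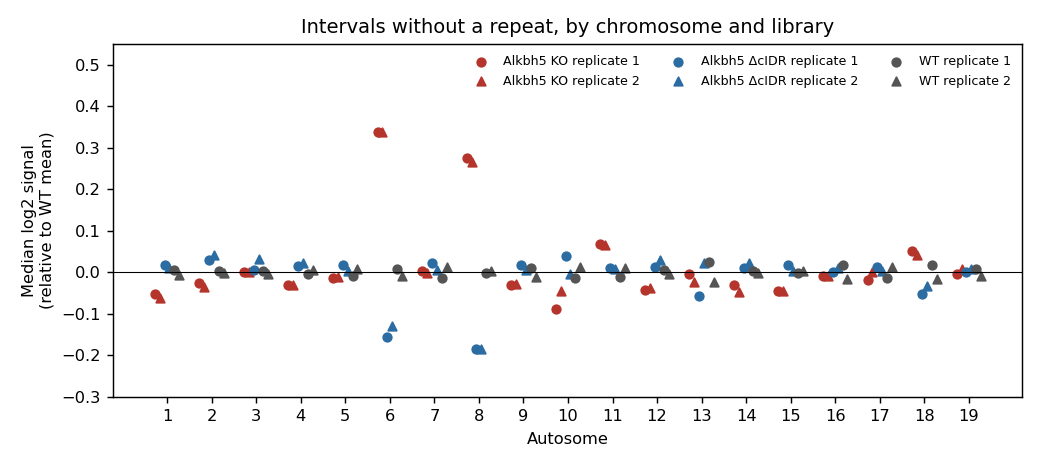
Median log2 signal of intervals without a repeat on each autosome, relative to the WT mean and centred on the autosomes other than chromosome 6 (vertical axis), by autosome (horizontal axis). Each point is 1 library, coloured by genotype, with circles for replicate 1 and triangles for replicate 2. On chromosome 6 the KO libraries sit at 0.34 and 0.34 and the ΔcIDR libraries at −0.16 and −0.13, and chromosome 8 lies similarly far from 0.

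The shift was carried by most intervals. Of the 1094, 838 (76.6%) had a higher KO than WT mean, against 49.5% of the 20634 on the other autosomes. In ΔcIDR over WT 776 (70.9%) were lower, against 49.7% on the other autosomes, and in ΔcIDR over KO 883 (80.7%) were lower, against 50.7%. The distribution was about as wide as elsewhere. The distance from the 25th to the 75th percentile was 0.61 on chromosome 6 and 0.58 on the other autosomes in KO over WT, and 0.42 and 0.38 in ΔcIDR over WT.

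Both KO libraries lay above both WT libraries in 655 intervals (59.9%), beside 33.1% of all 37759 intervals with a mean of at least 1. Both ΔcIDR libraries lay below both WT libraries in 393 (35.9%), beside 28.8%, and below both KO libraries in 749 (68.5%), beside 43.1%. Since the chromosome was picked for its shift, nothing further is read from these shares. Single intervals varied between replicates, with an SD of the replicate difference over intervals of 0.32 in KO, 0.43 in ΔcIDR and 0.41 in WT on the log2 scale.

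**Figure D2:**
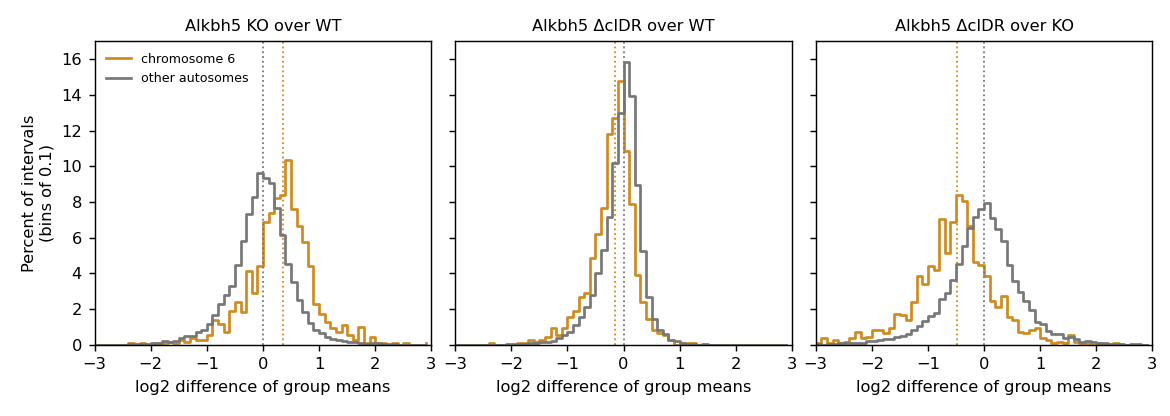
Percent of intervals without a repeat (vertical axis, bins of 0.1) by log2 difference of group means (horizontal axis), on chromosome 6 and on the other autosomes, with dotted lines at the medians. The chromosome 6 curve is displaced to the right in KO over WT and to the left in ΔcIDR over WT and in ΔcIDR over KO. Differences beyond 3 are not drawn, which leaves out 1, 0 and 3 intervals on chromosome 6 and 10, 2 and 36 on the other autosomes.

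The KO shift hardly varied with the level of an interval. In 3 classes by mean reads, KO over WT was 0.33 ± 0.080 in the lowest, 0.36 ± 0.014 in the middle and 0.35 ± 0.041 in the highest class (SE, n = 2 each). ΔcIDR over WT was −0.35 ± 0.056, −0.16 ± 0.021 and −0.051 ± 0.040 in the same classes. Intervals of those classes on the other autosomes also went with level in ΔcIDR, at −0.16, −0.015 and 0.072. Set against its own class elsewhere, chromosome 6 stood at −0.19 ± 0.024, −0.14 ± 0.038 and −0.12 ± 0.011 in ΔcIDR, and at 0.35 ± 0.027, 0.36 ± 0.013 and 0.33 ± 0.014 in KO (SE, n = 2 each).

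KO over WT was 0.32 ± 0.025 in the shortest class, of 200 to 283 bp, and 0.37 ± 0.021 in the longest, of 473 to 2397 bp (SE, n = 2 each). ΔcIDR over WT went with length more, at −0.21 ± 0.025 in the shortest, −0.16 ± 0.030 in the middle and −0.088 ± 0.025 in the longest class. Length classes on the other autosomes were not set beside these, so the trend with length is not read as particular to chromosome 6. The 738 intervals with no repeat base stood at 0.37 ± 0.021 in KO over WT and −0.14 ± 0.029 in ΔcIDR over WT, and the 356 with some at 0.28 ± 0.027 and −0.16 ± 0.033. Neighbouring intervals can come from 1 transcript. Counted as 725 clusters joined across gaps of up to 10 kb, the set stood at 0.32 ± 0.00081 in KO over WT and −0.15 ± 0.019 in ΔcIDR over WT (SE, n = 2 each).

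Along the chromosome the KO shift was positive in every bin of 10 Mb and uneven in size. In bins of 10 Mb with at least 20 members, both KO libraries lay above both WT libraries in 14 of 14 bins, against 26.4% of 208 such bins on the 17 autosomes other than 6 and 8. The bins ran from 0.21 to 0.68. The 30 intervals from 60 to 70 Mb had medians of 0.68 and 0.67 in KO, −0.32 and −0.26 in ΔcIDR and −0.0022 and 0.0022 in WT. The 71 intervals from 40 to 50 Mb had 0.65 and 0.60 in KO, −0.19 and −0.16 in ΔcIDR and 0.045 and −0.045 in WT. These bins stood above the rest of the chromosome in both KO libraries.

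Between them, the 65 intervals from 50 to 60 Mb had 0.24 and 0.19 in KO, −0.19 and −0.18 in ΔcIDR and 0.031 and −0.031 in WT. The KO libraries of neighbouring bins from 40 to 70 Mb did not overlap. The lowest bin was that from 140 to 150 Mb, at 0.24 and 0.18 in KO, −0.18 and −0.080 in ΔcIDR and 0.026 and −0.026 in WT.

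ΔcIDR lay below WT with no overlap in 12 of the 14 bins, against 13.5% of the 208 bins elsewhere, and the bins ran from −0.43 to −0.066. The 28 intervals from 0 to 10 Mb had −0.49 and −0.36 in ΔcIDR against 0.084 and −0.084 in WT. The 42 from 20 to 30 Mb had −0.030 and −0.10 in ΔcIDR against 0.058 and −0.058 in WT, where the libraries overlapped. ΔcIDR lay below KO with no overlap in 14 of 14 bins, from −0.97 to −0.34, against 27.9% of the 208 bins. With bins of 5 Mb the counts were 17 of 18 for KO above WT, 13 of 18 for ΔcIDR below WT and 18 of 18 for ΔcIDR below KO. In the bin from 140 to 145 Mb, with 27 intervals, the KO and WT libraries overlapped. It had 0.0074 and 0.068 in KO and 0.0094 and −0.0094 in WT, so the KO shift was nearly absent there.

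**Figure D3:**
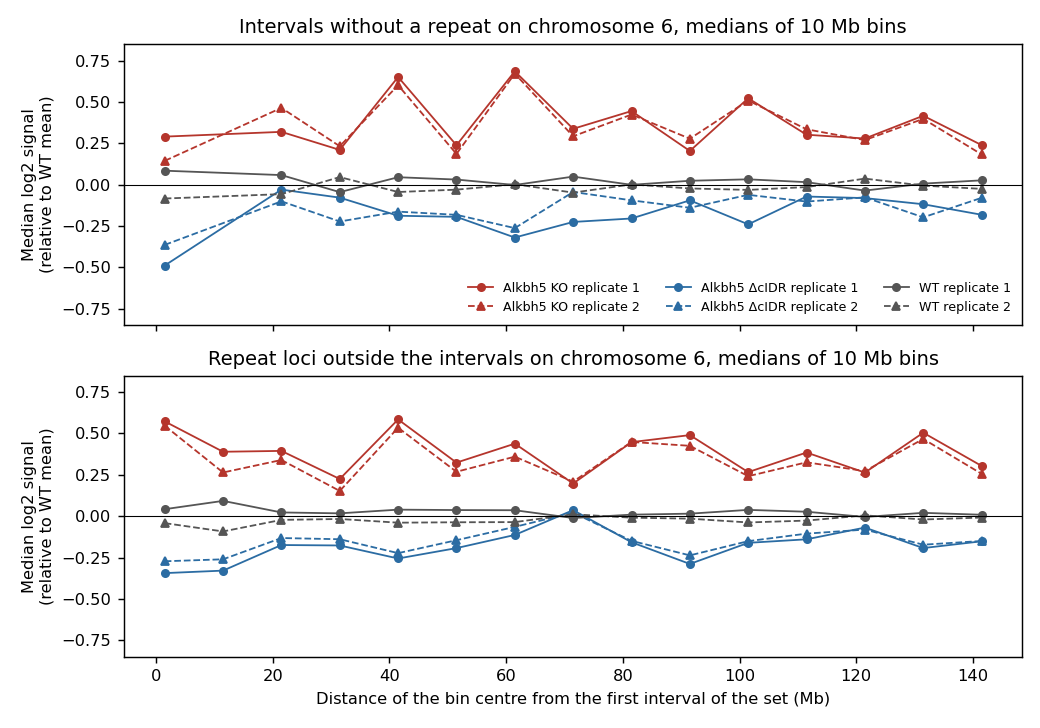
Median log2 signal relative to the WT mean (vertical axis) in bins of 10 Mb along chromosome 6 (horizontal axis, distance of the bin centre from the first interval of the set in Mb), by library, for intervals without a repeat (top) and for repeat loci outside the intervals (bottom). The KO lines lie above the WT lines in 14 of 14 bins at the top and 15 of 15 at the bottom, with peaks of 0.63 and 0.68 at the top, and the ΔcIDR lines lie below them in 12 of 14 and 14 of 15.

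Repeat loci that overlap no interval are features of the other deposited table, which did not enter the choice of the set but come from the same libraries. On chromosome 6, 13027 such loci with at least 20 reads on average had medians of 0.35 and 0.32 in KO, −0.17 and −0.14 in ΔcIDR and 0.017 and −0.017 in WT, centred on such loci of the other autosomes. KO over WT was 0.33 ± 0.024 and ΔcIDR over WT −0.15 ± 0.022 (SE, n = 2 each). The 17 autosomes other than 6 and 8 lay between −0.073 and 0.11 in KO over WT and between −0.023 and 0.035 in ΔcIDR over WT.

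Each of the 14 repeat families with 100 or more such loci stood above WT in KO and below it in ΔcIDR. These values are centred on loci of all families together on the other autosomes. The same family elsewhere was not set beside them, so a single family's value is not read as a trait of chromosome 6. SINE B2 loci, short elements derived from a transfer RNA, stood at 0.34 ± 0.031 in KO and −0.12 ± 0.019 in ΔcIDR (SE, n = 2 each). L1 loci, long elements that encode their own reverse transcriptase, stood at 0.30 ± 0.041 and −0.24 ± 0.0094. The families ran from 0.25 in low-complexity loci to 0.44 in SINE ID loci in KO over WT, and from −0.24 in L1 to −0.078 in simple repeats in ΔcIDR over WT.

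The profile along the chromosome matched only in part between intervals and outside loci. Across 14 bins, KO over WT of both had a Pearson r of 0.33 and a Spearman rho of 0.25, a description over bins that share libraries. The bin from 40 to 50 Mb was high in both, at 0.63 in intervals and 0.56 in loci, and that from 30 to 40 Mb was low in both, at 0.22 and 0.19. From 0 to 10 Mb intervals stood at 0.22 and loci at 0.56, and from 60 to 70 Mb at 0.68 and 0.40. In ΔcIDR over WT, loci from 70 to 80 Mb stood at 0.029, the 1 bin of 15 above WT.

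Single intervals were tested with limma across all 37759 intervals with a mean of at least 1. With libraries centred on the other autosomes, 261 of the 1094 were higher in KO than in WT and 38 lower at an adjusted p of 0.05, where 7.18% of all tested intervals were called higher and 5.85% lower. In ΔcIDR over KO, 47 were higher and 456 lower, where 9.85% and 18.1% of all tested intervals were called. In ΔcIDR over WT, 0 were higher and 1 lower, where 0.0609% and 0.117% were called. At an unadjusted p under 0.05, 25 were higher and 161 lower in ΔcIDR over WT, edgeR on whole reads called 0 and 1, and DESeq2 called 1 and 9. The chromosome was picked for this shift, so nothing is read from these counts. The 299 KO over WT calls went down to 33 without KO replicate 1, 46 without KO replicate 2 and 164 without WT replicate 2. The 503 ΔcIDR over KO calls went down to 229 without KO replicate 1 and 241 without KO replicate 2.

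To find intervals that break from the shift, each library was centred chromosome by chromosome on its own median and the fit was repeated. In KO over WT, 69 members then lay above the chromosome and 96 below it, where 5.97% of all tested intervals were called higher and 5.82% lower. These are 6.31% and 8.78% of the set, against 5.63% and 7.24% of the intervals without a repeat on the other autosomes. Both shares are near the background. Of the 1094, 14 reached the minimum mean only through KO, 18 only through ΔcIDR and 6 only through WT, in that the other 4 libraries averaged under 1, and 2 of the 14 are among the 69. All 69 were also called higher against the other autosomes, which adds no support, since the shift of the chromosome adds to their departure. Of the 96, 38 were called lower against the other autosomes, where the 96 ran from −2.37 to −0.037. The 165 calls went down to 35 without KO replicate 1, 37 without KO replicate 2 and 82 without WT replicate 2.

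The intervals above the KO shift had a median of 234.5 reads and 81.2% of them held no repeat base. Those below it had 272 reads and 52.1%, and the 929 that were not called had 152 reads and 68.0%. Called intervals of other chromosomes were not set beside these, and depth was not matched. The shares are therefore not read as traits of chromosome 6. The intervals above and below the shift lay in 55 and 79 clusters joined across up to 10 kb. Their placement was uneven. Of 71 members from 40 to 50 Mb, 16 lay above the shift and 2 below it. Of 105 from 30 to 40 Mb, 0 lay above and 17 below, and of 84 from 140 to 150 Mb, 2 and 14. Of 137 from 110 to 120 Mb, 12 lay above and 12 below. Departures are measured from the median of the whole chromosome, so these counts partly restate the bin medians given above. Bins of other chromosomes were not set beside them, so nothing further is read from the placement.

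In ΔcIDR over KO, 157 members lay above the chromosome and 161 below it, where 9.65% and 15.8% of all tested intervals were called. These are 14.4% and 14.7% of the set, against 13.4% and 12.6% of the intervals without a repeat on the other autosomes. Of the 157, 47 were called higher against the other autosomes, and all 161 below were called lower. The latter adds no support, since the shift of the chromosome adds to their departure. Of the members above, 4 had reached the minimum mean only through ΔcIDR, and of those below 9 only through KO. In ΔcIDR over WT, 0 lay above and 1 below, where 0.0609% and 0.122% of all tested intervals were called. At an unadjusted p under 0.05, 77 lay above and 92 below by limma, and edgeR called 1 in all. The 318 ΔcIDR over KO calls went down to 125 without KO replicate 1 and 114 without KO replicate 2.

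**Figure D4:**
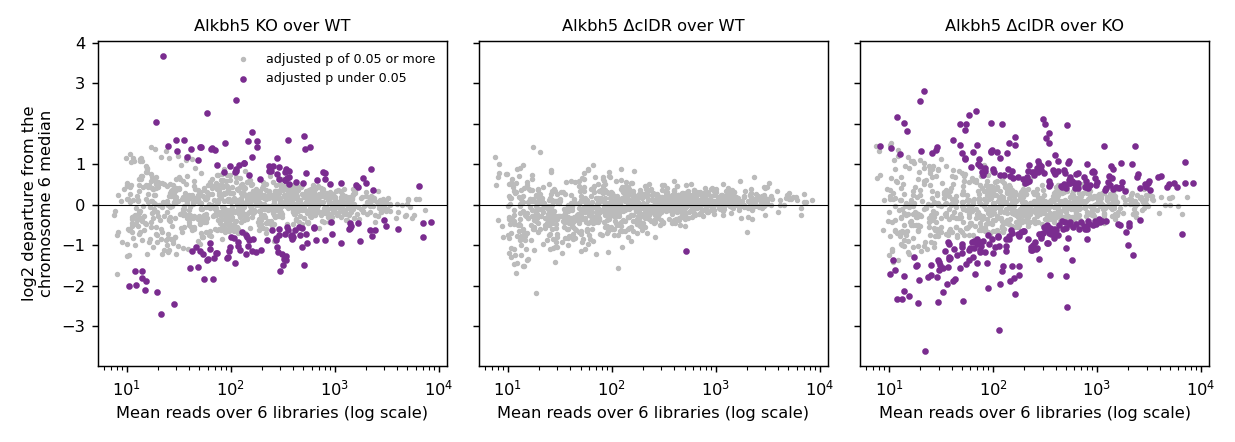
Departure of each of the 1094 intervals from the chromosome 6 median (vertical axis, log2, limma) against its mean reads over 6 libraries (horizontal axis, log scale), for KO over WT, ΔcIDR over WT and ΔcIDR over KO. Purple points passed an adjusted p of 0.05. They number 165, 1 and 318 and lie on both sides of 0 in the comparisons that involve KO.

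Named intervals are given by their GRCm39 position on chromosome 6, with deposited signal divided by 1 factor per library so that the other autosomes match. The files do not state whether starts are counted from 0 or 1. The interval from 41752146 to 41752909 stood farthest above the KO shift. Its signal was 7.97 and 6.77 in KO, 0 and 0.322 in ΔcIDR and 0 and 0 in WT. These are 73 and 58 reads in KO, 0 and 3 in ΔcIDR and 0 and 0 in WT, so it was nearly confined to KO among these 6 libraries. KO was at least 20.5-fold higher than WT, with a floor of 3 reads per library standing for WT (limma adjusted p = 0.0014 for the departure). It reached the minimum mean of 1 only through KO, since the other 4 libraries averaged 0.121 on the deposited scale, so its place above the shift is a description and the p supports nothing.

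The interval from 82685647 to 82686618 had 32.3 and 31.6 in KO, 3.82 and 1.505 in ΔcIDR and 3.88 and 3.79 in WT. KO stood apart from both other genotypes, 2.57 ± 0.35 above the chromosome on the log2 scale in KO over WT (SE, limma adjusted p = 0.0013). The interval from 83045204 to 83045626 had 42.0 and 38.0 in KO, 5.73 and 6.34 in ΔcIDR and 8.72 and 8.89 in WT. KO lay 1.79 ± 0.20 above the chromosome (SE, limma adjusted p = 4.2e-04), and ΔcIDR lay below WT in both libraries without passing the test (limma adjusted p = 0.43).

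The interval from 136306535 to 136306918 had 14.0 and 14.5 in KO, 4.16 and 3.44 in ΔcIDR and 1.45 and 2.61 in WT. Here KO departed by 2.25 ± 0.32 (SE, limma adjusted p = 0.0016), while ΔcIDR lay above WT in both libraries at 0.88 ± 0.32 and did not pass (limma adjusted p = 0.31). The interval from 127106809 to 127107019 had 4.48 and 5.72 in KO, 0.449 and 1.29 in ΔcIDR and 0.485 and 0.711 in WT. Its departure of 2.05 ± 0.47 passed (SE, limma adjusted p = 0.017), and the call was lost without KO replicate 1, KO replicate 2 or WT replicate 1, at an adjusted p of 0.11, 0.17 and 0.059. With a pseudocount of 2 the departure was 1.22. This interval too reached the minimum only through KO, with a mean of 0.951 over the other 4 libraries, so its place above the shift is a description.

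Below the KO shift, the interval from 59330150 to 59331024 had 0.983 and 0.817 in KO, 3.48 and 2.04 in ΔcIDR and 6.30 and 6.40 in WT. KO departed by −2.46 ± 0.37 (SE, limma adjusted p = 0.0022), and by −1.57 with a pseudocount of 2. ΔcIDR lay between KO and WT, and its departure of −1.04 ± 0.37 from WT did not pass (limma adjusted p = 0.30). The interval from 50887085 to 50887285 had 2 and 0 reads in KO, 33 and 32 in ΔcIDR and 21 and 41 in WT (limma adjusted p = 0.0024). It was nearly absent from the KO libraries, and no fold is given against 2 reads.

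The interval from 119293994 to 119294275 had 5 and 0 reads in KO, 37 and 29 in ΔcIDR and 22 and 25 in WT, and KO lay below the chromosome (limma adjusted p = 0.0064). The size rests on the pseudocount, at −2.16 with 0.5, −3.50 with 0.1, −1.05 with 2 and −3.59 by edgeR. That call was lost without KO replicate 2, at an adjusted p of 0.068. Neighbouring intervals from 58911226 to 58911432 and from 58911835 to 58912712 were both low in KO. The first had 0.328 and 0.233 in KO, 1.80 and 2.36 in ΔcIDR and 3.15 and 2.37 in WT, a KO departure of −2.10 ± 0.42 (SE, limma adjusted p = 0.0087), which was lost without KO replicate 1, KO replicate 2 or WT replicate 1, at an adjusted p of 0.087, 0.057 and 0.056. With 3 and 2 reads in KO its size also rests on the pseudocount, at −1.03 with 2 and −3.55 by edgeR.

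The second of them had 2.62 and 2.57 in KO, 10.0 and 12.7 in ΔcIDR and 12.7 and 5.92 in WT, and was named for ΔcIDR over KO, at 2.31 ± 0.34 (SE, limma adjusted p = 7.7e-04). ΔcIDR and WT overlapped in the second, and in the first their nearest libraries lay close. The interval from 90285872 to 90286333 had 2 and 0 reads in KO, 6 and 21 in ΔcIDR and 21 and 13 in WT. It was the least firm of those named in KO over WT (limma adjusted p = 0.033). Its call was lost without any one of KO replicate 1, KO replicate 2, WT replicate 1 and WT replicate 2, at an adjusted p of 0.17, 0.16, 0.16 and 0.071, and with a pseudocount of 2 (0.10), a replicate block (0.068) or no trend in the prior variance (0.073).

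The 1 interval that broke from the chromosome in ΔcIDR over WT ran from 92219745 to 92220261. It had 13.0 and 17.2 in ΔcIDR against 41.6 and 32.6 in WT, a departure of −1.14 ± 0.18 (SE, limma adjusted p = 0.032). In KO it had 134.4 and 111.8 against the same WT values, a departure of 1.39 ± 0.18 (SE, limma adjusted p = 9.7e-04). No library of a genotype overlapped those of another, and each mutant lay on the same side of WT as the chromosome did, and farther from it. The ΔcIDR over WT call was lost without KO replicate 1, KO replicate 2 or WT replicate 1, at an adjusted p of 0.14, 0.13 and 0.14, and also with a replicate block (0.15) and with no trend in the prior variance (0.23).

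Of the 10 intervals named for ΔcIDR over KO, 5 are described above as departures in KO over WT or ΔcIDR over WT, and 1 as the second of the neighbours. Those that remain follow. The interval from 88826514 to 88826714 had 11.8 and 10.2 in ΔcIDR against 2.18 and 3.38 in KO, with 6.06 and 6.75 in WT, a departure of 2.22 ± 0.30 (SE, limma adjusted p = 4.5e-04). WT lay between the mutants there. The interval from 140241773 to 140242251 had 23 and 20 reads in ΔcIDR against 3 and 0 in KO, with 12 and 14 in WT (limma adjusted p = 0.0042). It reached the minimum only through ΔcIDR, with a mean of 0.855 over the other 4 libraries, so its place is a description.

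The interval from 93360733 to 93361291 had 0.899 and 0.645 in ΔcIDR against 9.39 and 5.84 in KO, with 1.82 and 1.42 in WT, a departure of −2.40 ± 0.39 (SE, limma adjusted p = 0.0014). The interval from 43265766 to 43266106 had 0.112 and 0.430 in ΔcIDR against 4.04 and 3.38 in KO, with 3.27 and 1.78 in WT, a departure of −2.43 ± 0.46 (SE, limma adjusted p = 0.0032), or −1.46 with a pseudocount of 2. In both, the KO libraries lay above and the ΔcIDR libraries below both WT libraries. All 10 ΔcIDR over KO calls held under each alternative that gave a value. The interval starting at 41752146 reached the minimum only through KO and that at 140241773 only through ΔcIDR, so their calls support nothing.

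Intervals that broke from the chromosome also came in runs, taken as at least 3 in the same direction with gaps of at most 50 kb. In KO over WT there were 2 runs above the shift with 7 intervals and 6 below it with 21. Runs on other chromosomes are not given here, so nothing is read from the number of runs. Values are signal summed over the intervals of a run. The run from 113424453 to 113475130, with 4 intervals, had 200.8 and 208.2 in KO, 97.7 and 91.6 in ΔcIDR and 91.1 and 96.9 in WT. The run from 47430566 to 47502918, with 3 intervals, had 152.2 and 124.8 in KO, 49.4 and 64.4 in ΔcIDR and 67.5 and 62.0 in WT. In both, KO stood apart while ΔcIDR and WT overlapped.

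Below the shift, the run from 112695946 to 112700307, with 3 intervals, had 24.6 and 19.96 in KO, 63.4 and 70.6 in ΔcIDR and 56.5 and 55.5 in WT. The run from 112882799 to 112924258, with 3 intervals, had 47.2 and 57.0 in KO, 164.7 and 119.5 in ΔcIDR and 109.6 and 119.7 in WT. The run from 92352788 to 92388328, with 3 intervals, had 52.4 and 54.4 in KO, 117.5 and 117.6 in ΔcIDR and 105.6 and 101.7 in WT. In these KO lay well below both other genotypes, opposite to the chromosome.

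The run from 4754288 to 4759626 differed. Its 4 intervals had 286.1 and 240.9 in KO, 263.8 and 295.8 in ΔcIDR and 410.8 and 376.2 in WT, so both mutants lay below WT and overlapped each other. On the scale of the other autosomes its median was −0.64 ± 0.14 in KO over WT and −0.47 ± 0.10 in ΔcIDR over WT (SE, n = 2 each). The runs from 34698897 to 34750412 and from 142902642 to 142935507 lay closer to WT. The first had 860.6 and 812.8 in KO, 1081 and 889.4 in ΔcIDR and 929.8 and 1087 in WT, and the second 229.8 and 247.5 in KO, 290.7 and 275.1 in ΔcIDR and 320.9 and 312.6 in WT.

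**Figure D5:**
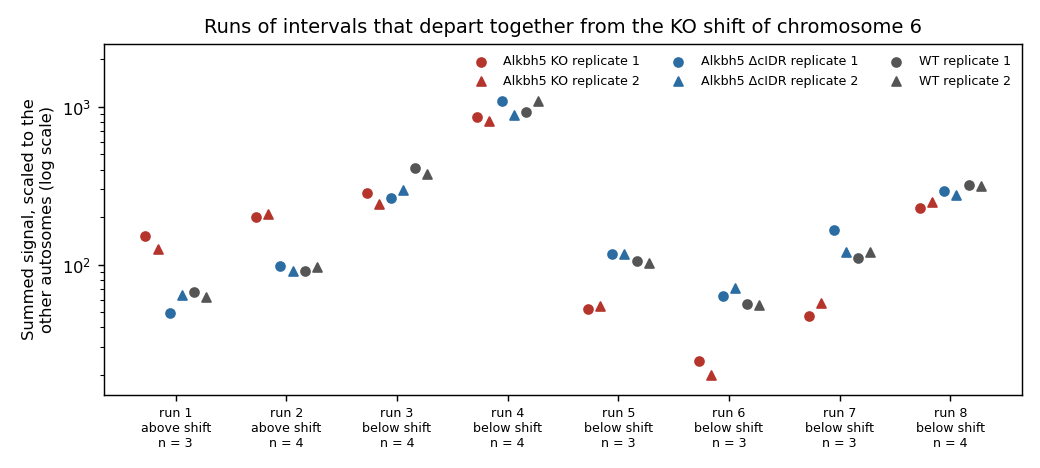
Signal summed over the intervals of each of 8 runs that break from the KO shift (vertical axis, log scale, scaled to the other autosomes), with 2 runs above the shift and then 6 below it, each in order of position (horizontal axis). Each point is 1 library. The KO libraries lie above the others in the first 2 runs and below both WT libraries in the other 6, and ΔcIDR overlaps KO in run 3.

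In ΔcIDR over KO there were 13 runs above the chromosome with 41 intervals and 10 below it with 43, and 0 runs in ΔcIDR over WT. Above is meant relative to the chromosome. Of all 157 members above it, 47 were called higher against the other autosomes. Again, nothing is read from the number of runs. The run with most intervals ran from 83028239 to 83055031, where 7 of 8 members broke from the chromosome. It had 204.3 and 249.3 in ΔcIDR against 453.5 and 475.2 in KO, with 261.4 and 258.3 in WT. The run from 52090549 to 52108603, with 3 intervals, had 24.5 and 22.8 in ΔcIDR against 93.5 and 99.1 in KO, with 28.1 and 40.3 in WT. ΔcIDR was below WT in both libraries of both runs, and KO above it.

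The 10 intervals with the highest signal carried the KO shift unevenly. In KO over WT 1 of them lay above the chromosome and 3 below it by limma, in ΔcIDR over KO 5 lay above and 1 below, and in ΔcIDR over WT 0 passed. Of all tested intervals, 5.97% and 5.82% were called higher and lower in KO over WT, and 9.65% and 15.8% in ΔcIDR over KO. Shares among intervals of similar depth are not given here, so nothing is read from these counts. The interval with most signal, from 122706595 to 122707121, had 974.0 and 887.1 in KO, 978.6 and 954.3 in ΔcIDR and 946.4 and 1016 in WT. The genotypes overlapped, which put KO at −0.42 ± 0.10 from the chromosome (SE, limma adjusted p = 0.021).

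The next, from 122690153 to 122690660, had 676.9 and 571.7 in KO, 890.3 and 979.7 in ΔcIDR and 918.9 and 792.6 in WT. KO was lowest there, at −0.79 ± 0.11 from the chromosome (SE, limma adjusted p = 0.0017). The interval from 67254556 to 67254759 had 812.4 and 727.4 in KO, 823.4 and 765.7 in ΔcIDR and 788.9 and 874.7 in WT, at −0.45 ± 0.11 in KO over WT (SE, limma adjusted p = 0.020). In this interval the genotypes overlapped again.

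In the other direction, the interval from 4905160 to 4906804 had 1071 and 1149 in KO, 456.8 and 514.1 in ΔcIDR and 679.9 and 601.8 in WT. The genotypes did not overlap, and KO lay 0.46 ± 0.10 above the chromosome (SE, limma adjusted p = 0.017). The interval from 71851322 to 71851916 had 885.0 and 813.1 in KO, 544.8 and 659.5 in ΔcIDR and 660.3 and 556.4 in WT, and the interval from 83955877 to 83956832 had 967.9 and 941.0 in KO, 518.2 and 666.1 in ΔcIDR and 795.6 and 580.2 in WT. On the scale of the other autosomes KO over WT was 0.48 ± 0.12 in the first and 0.49 ± 0.15 in the second (SE from limma on all 6 libraries). Neither passed as a departure from the chromosome in KO over WT. The others, starting at 117901649, 149229418, 124891193 and 118381641, did not pass in KO over WT either.

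At the edges of the rule, the 3 members nearest above a mean of 1 had means of 1.02, 1.02 and 1.06, and the 3 intervals nearest below it 0.999, 0.976 and 0.951. The members nearest below the coverage limit were covered to 49.5%, 49.1% and 48.9% by a repeat family, and the intervals nearest above it to 50%, 50.2% and 50.2%.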

How the data were processed

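Chromatin-associated RNA was depleted of ribosomal RNA, given an m6A spike-in, fragmented and immunoprecipitated with an m6A antibody, per the labels' protocols. Per the submitters' processing notes the tools included HISAT2, featureCounts, MACS2, Picard and fastp, besides SAMtools and bedtools, on GRCm39, with no versions, roles or order, and whether libraries were pooled to define intervals is not given in the sources used here. The deposited signal equals whole reads times 1 factor per library in 100% of values, within 1e-06 of a whole number, and the factors follow the spike-in reads in the authors' table, which came to 1379 and 1870 in KO, 814 and 849 in ΔcIDR and 1172 and 1106 in WT. The scale therefore rests on few spike-in reads.

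Signal was turned to log2(signal + 0.5), which understates differences of low intervals, and each library was centred on intervals without a repeat on the other autosomes. Overlap with repeats was found with bedtools 2.31.1. limma 3.58.1 with a trend was fitted to all 6 libraries over 37759 intervals with Benjamini-Hochberg adjustment, once with that centring and once with each chromosome centred on itself. edgeR 4.0.16 and DESeq2 1.42.0 in R 4.3.3 were run on recovered reads as alternatives, and Python 3.11.15, pandas 2.3.3, numpy 2.4.6 and matplotlib 3.10.9 did the rest. The fits were tested on simulated data. Named intervals are the 10 with the highest signal, the 5 largest departures per contrast and direction past an adjusted p of 0.05 with no overlap of libraries, the 3 at each edge of the rule, and runs, of which some are described. The members and rules were chosen with earlier results of these data known. Replicate numbers did not pair the libraries. Deviations from the group means of same-numbered libraries correlated at 0.076 between KO and WT, −0.29 between ΔcIDR and WT and −0.15 between ΔcIDR and KO over 37759 intervals.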

Additional observations from a re-analysis of the deposited data

How the results depend on the processing

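The shift of chromosome 6 kept its direction under each alternative except the deposited scale. There it was −0.072 ± 0.27 in KO over WT, 0.44 ± 0.052 in ΔcIDR over WT and 0.51 ± 0.27 in ΔcIDR over KO (SE, n = 2 each). The KO over WT value there was smaller than its SE. KO over WT was 0.35 with a pseudocount of 0.1, 0.30 with 2, 0.36 centred without chromosomes 8 and 11, and 0.32 over clusters within 10 kb, an alternative chosen after seeing the data. ΔcIDR over WT was −0.11 from summed reads. ΔcIDR over KO was −0.44 with a pseudocount of 2, −0.52 without chromosomes 8 and 11 and −0.45 from summed reads. Leaving out 1 library gave shifts of 0.34 to 0.35, −0.16 to −0.13 and −0.49 to −0.47. For KO over WT calls, the replicate block gave 172, no variance trend 75 and the deposited scale 88 (25 higher and 63 lower, beside 261 and 38), and TMM factors gave 213 and 50. Breaking intervals in KO over WT were 93 with the block and 47 with no trend. ΔcIDR over WT calls were 6 with a pseudocount of 2, 4 with no filter, 0 with the block, 0 with no trend, 8 on the deposited scale and 10 with DESeq2, and breaking intervals 2, 3, 0 and 0 under the first 4 of these. ΔcIDR over KO gave 333 calls and 183 breaking intervals with no trend, and 335 higher and 43 lower on the deposited scale, beside 47 and 456. Leaving out 1 library gave 33 to 369 calls and 35 to 200 breaking intervals in KO over WT, 0 to 14 and 0 to 6 in ΔcIDR over WT, and 229 to 546 and 114 to 337 in ΔcIDR over KO. The replicate numbers are only numbers, and the replicate block left the shifts at 0.34, −0.14 and −0.48. Each genotype has both replicate numbers, so a block cannot change these differences of means, and nothing is read from that. The cause of these changes was not tested. Of 123 values for the 10 intervals named in KO over WT, 14 lost their call and 0 reversed, and 6 intervals kept it throughout. The 6 include the interval starting at 41752146, which reached the minimum only through KO, so its calls support nothing. Intervals with few reads have the least precise values.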

Other observations

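The 859 chromosome 6 intervals that a repeat covers to 50% or more stood at 0.25 and 0.50 in KO, −0.24 and −0.53 in ΔcIDR and −0.054 and 0.054 in WT, with the same centring. Their replicates differed more than those of intervals without a repeat. KO over WT was 0.37 ± 0.14 and ΔcIDR over WT −0.39 ± 0.16 (SE, n = 2 each). Intervals over ERVK, a family of endogenous retroviruses with long terminal repeats, stood at 0.24 ± 0.076 in KO over WT on chromosome 6 (67 intervals) and at −0.17 ± 0.023 on the other autosomes (1273 intervals). Those over MaLR elements stood at 0.32 ± 0.11 (42 intervals) and 0.036 ± 0.060 (915 intervals). Intervals over L1 stood at 0.35 ± 0.17 (544 intervals) and 0.18 ± 0.18 (6869 intervals), a difference between places that was not tested. Both places share the same libraries, so these SEs do not measure the spread of that difference. The KO libraries stood at 0.19 and 0.50 on chromosome 6 and at 0.021 and 0.34 elsewhere. The WT libraries stood at −0.066 and 0.066 and at −0.080 and 0.080. Intervals over ERVL, another retroviral family, stood at 1.03 ± 0.096 on chromosome 6 (76 intervals) and at 0.97 ± 0.13 on the other autosomes (1587 intervals), so chromosome 6 hardly differed from them there. In ΔcIDR over WT these families lay below WT on the other autosomes too. L1 stood at −0.40 on chromosome 6 and −0.37 on the other autosomes, and ERVL at −0.32 and −0.30. ERVK stood at −0.37 and −0.20, and MaLR at −0.29 and −0.19. The −0.39 over all 859 is therefore not read as particular to chromosome 6.

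The 7 intervals from 83043453 to 83063966 form the largest cluster within 10 kb, with medians of 0.94 and 1.01 in KO, −0.27 and −0.56 in ΔcIDR and −0.16 and 0.16 in WT.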
